A study of Mus musculus with 13 samples.

Results

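Bone marrow at the time of leukaemia was set against the barcoded progenitors of the baseline library, clone by clone. The clones are the 2394 DNA barcodes with a value above 0 in the baseline library, of 2505 barcodes in the table, and each of 6 bone marrow libraries was compared with the single baseline library on its own. The values are CPM, the reads of a barcode per 1000000 barcode reads of its library, and large values are also given as percent of a library.

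A heritable barcode is a short DNA tag that integrates into the genome of a transduced cell and passes to all its descendants, so that the share of a tag in a library stands for the size of a clone. MLL-AF9 is a fusion oncogene of acute myeloid leukaemia that can turn haematopoietic progenitors into leukaemia-initiating cells. When barcoded cells are transplanted, clones can fail to engraft, persist at a low level or take over the marrow, the tissue in which myeloid leukaemia usually establishes itself first. Shares are relative within a library, so a clone can lose share while its cell number rises.

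The groups, as the labels name them, were as follows. Baseline (KF08) was 1 library of c-Kit positive haematopoietic progenitors, cultured with IL-3, IL-6 and SCF and transduced with the SPLINTR barcode library. Ptprca bone marrow came from mice 1, 2 and 3 and NSG bone marrow from mice 4, 5 and 6, all at the time point named disease, after transplantation of barcoded MLL-AF9 leukaemia cells. Ptprca mice are C57BL/6 congenic animals with an intact immune system, and NSG mice lack T, B and natural killer cells. All mice share the MLL-AF9 oncogene and the barcode vector in the transplanted cells. The sources used here give no number of transplanted cells, no day of harvest and no ages of the mice. Nor do they say whether the baseline library was taken from the very cells that were injected. Nothing states that the mice of a strain were treated on separate occasions, so p-values measure only the spread between these mice. With 1 baseline library, differences from baseline have no replicate check and no test. The 6 comparisons share that library, so an error in its value of a clone enters all of them.

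Each library was the mean of 2 technical repeats of a lysate, with 2484519 to 5201858 reads over both repeats of a bone marrow and 4983966 of the baseline library. Taking 3 reads in the less deep repeat as the floor gave 0.613 to 0.735 CPM in 5 bone marrows and 8.80 CPM in Ptprca mouse 3, where 1 repeat had 170453 reads. Amplified reads are not counted by molecule, so floors and intervals cover counting error only. Small clones in bone marrow were less repeatable than in the baseline library. For barcodes of 10 to 100 CPM, log2 ratios of the repeats had an SD of 0.809 at baseline and 1.09 to 2.18 in bone marrow, with NSG mouse 4 the highest. For those of 100 to 1000 CPM the SD was 0.298 at baseline and 0.351 to 0.585 in bone marrow. The bone marrows of Ptprca mouse 1 and NSG mouse 5 had 26 barcodes that were seen in those libraries and in no other bone marrow, against 1 to 15 for each other pair of bone marrows. Of the 26, 25 are among the 2394, and 7 were at 10 CPM or more in both libraries. The part of this sharing in the results was not tested. Values without both libraries are given where they matter.

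Most progenitor clones were not found in any given bone marrow. Counting a clone as surviving at 10 CPM or more, a limit above the floor of every library, 252, 241 and 226 of the 2394 clones survived in Ptprca mice 1, 2 and 3 (10.5%, 10.1% and 9.44%). For NSG mice 4, 5 and 6 the survivors numbered 290, 340 and 298 (12.1%, 14.2% and 12.4%). All 3 NSG values lay above all 3 Ptprca values. Ptprca mice averaged 240 ± 13.1 survivors and NSG mice 309 ± 26.9 (SD, n = 3 each). By exact two-sided permutation p was 0.10, the smallest that 3 against 3 mice allow, and 0.225 after adjustment over 9 per-mouse measures. Without Ptprca mouse 1 and NSG mouse 5 the means were 234 and 294. A clone was at 0 CPM in 2037, 2107 and 2112 cases in Ptprca mice 1, 2 and 3 (85.1%, 88.0% and 88.2%). The corresponding counts were 2050, 1972 and 2047 in NSG mice 4, 5 and 6 (85.6%, 82.4% and 85.5%). On this count the strains overlapped, since Ptprca mouse 1 lay between NSG mice 5 and 6.

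Weighted by their starting size, the clones that did not survive were a far smaller part of the progenitor pool than their number, because many were small. Clones under 10 CPM in bone marrow had held 53.8%, 63.1% and 62.2% of the baseline library in Ptprca mice 1, 2 and 3. For NSG mice 4, 5 and 6 they had held 48.8%, 46.6% and 50.2%. The strains did not overlap, at 59.7% ± 5.13 and 48.5% ± 1.80 (SD, n = 3 each, p = 0.10 by exact two-sided permutation and 0.225 after adjustment). Among these clones, those without a single read had held 44.4%, 56.7% and 54.3% of baseline in Ptprca mice. In NSG mice the clones without a read had held 46.2%, 42.9% and 46.6% of baseline. On this narrower count the strains overlapped, since Ptprca mouse 1 lay between NSG mice 5 and 4. Clones with reads but under 10 CPM accounted for the rest, 6.44% to 9.46% of baseline for Ptprca and 2.62% to 3.70% for NSG hosts.

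Survival was more frequent in clones that started larger. The limit adds to this, since a clone under 10 CPM at baseline must gain share to count, while a larger one may lose share. Clones at 0 CPM also fell from the smallest to the largest class, on average from 98.7% to 57.1% in Ptprca and from 97.8% to 52.4% in NSG mice. An equal fold loss takes a small clone below the floor sooner, and the part of this was not tested. The baseline library had 633 clones under 10 CPM, 832 from 10 to 100 CPM, 745 from 100 to 1000 CPM and 184 at 1000 CPM or more, and these 4 classes held 0.227%, 3.37%, 25.9% and 70.5% of it. In Ptprca mice the surviving percentages from the smallest to the largest class were 0.948 ± 0.689, 4.93 ± 0.551, 17.3 ± 0.689 and 34.8 ± 2.17 (SD, n = 3). In NSG mice they were 1.16 ± 0.241, 6.45 (5.29 to 7.69 by mouse), 22.4 ± 2.22 and 44.2 ± 1.26 (SD, n = 3). In the class of 1000 CPM or more, survivors numbered 68, 64 and 60 of 184 in Ptprca and 80, 84 and 80 of 184 in NSG mice, without overlap. In the class from 100 to 1000 CPM they numbered 130, 133 and 123 of 745 in Ptprca and 150, 183 and 168 of 745 in NSG mice, again without overlap. Below 100 CPM the strains overlapped. A starting size of 1000 CPM or more was no guarantee of survival: 49.5% to 59.2% of these largest clones were at 0 CPM in a given bone marrow.

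The clones that survived in 1 mouse were often found in others. This count uses the bone marrow values alone and not the level at baseline. Of the 2394 clones, 1859 (77.7%) reached 10 CPM in no bone marrow, and they had held 37.6% of the baseline library. Exactly 1 mouse carried 173 clones, and 100 clones (4.18%) reached 10 CPM in all 6. From 2 to 5 mice carried 77, 80, 45 and 60 clones. The clones in all 6 mice had a median of 789 CPM at baseline, against 124 CPM for those in 1 mouse and 29.3 CPM for those in none. Together the 100 clones had held 28.3% of the baseline library. They made up 79.7%, 75.9% and 72.2% of the bone marrow in Ptprca mice 1, 2 and 3 and 81.3%, 78.2% and 84.3% in NSG mice 4, 5 and 6. They were chosen from these same libraries, so that share is a description. Not all of them had gained share: 73, 66 and 59 in Ptprca mice 2, 1 and 3, and 66, 61 and 61 in NSG mice 4, 5 and 6, were above their baseline value. Clones in all 3 mice of 1 strain and in no mouse of the other numbered 17 of 2394 for NSG and 6 of 2394 for Ptprca mice. A further 44 clones were in all 3 NSG and 2 Ptprca mice, against 16 in all 3 Ptprca and 2 NSG mice. NSG mice had more survivors in general, with a mean of 309 against 240, and the part of this in these counts was not tested.

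Loss of share among the large clones was the rule in both strains. Of 929 clones at 100 CPM or more in the baseline library, where a 10-fold lower value lies above the floor of each library, 785, 764 and 771 were at least 10-fold lower in Ptprca mice 1, 2 and 3 (84.5%, 82.2% and 83.0%). The counts were 739, 720 and 727 in NSG mice 4, 5 and 6 (79.5%, 77.5% and 78.3%). The strain means were 83.2% ± 1.15 and 78.4% ± 1.03 (SD, n = 3 each), without overlap (p = 0.10 by exact two-sided permutation, 0.225 after adjustment). Fewer were found above their baseline level. Among the 184 largest clones, 26, 26 and 25 were above baseline in Ptprca mice 1, 2 and 3, with 21, 20 and 22 for NSG mice 4, 5 and 6. Among these largest clones the order of the strains was opposite to that of survival. It did not extend to the 745 clones from 100 to 1000 CPM. Of those, 67, 81 and 63 were above baseline in Ptprca mice 1, 2 and 3 and 79, 93 and 85 in NSG mice 4, 5 and 6. Neither count was tested.

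The 10 clones that were largest at baseline all held a smaller share of every bone marrow than of the progenitor pool. This was the common outcome at any size: 4.97% to 6.85% of the 2394 clones were at 10 CPM or more and above baseline in a given bone marrow. The largest, GFP_Barcode_27492, held 5.29% of the baseline library (95% Wilson interval 5.27% to 5.31%). It held 0.263%, 0.0663% and 0.0260% of Ptprca bone marrows 1, 2 and 3 and 0.110%, 0.327% and 0.328% of NSG bone marrows 4, 5 and 6, which is 16.1 to 203 times less. It was present in all mice, with its lowest value in Ptprca mouse 3. GFP_Barcode_129 started at almost the same size, 4.94% (4.92% to 4.95%), and was reduced much further except in NSG mouse 4. Its bone marrow values were 12.3, 0 and 0 CPM in Ptprca mice 1, 2 and 3 and 869, 69.8 and 170 CPM in NSG mice 4, 5 and 6. All 3 NSG values lay above the Ptprca values, but the strain difference did not pass (limma log2 difference 6.53, SE 2.23, adjusted p = 0.208). Against the floor, the clone was at least 67149-fold lower in Ptprca mouse 2 and at least 5608-fold lower in Ptprca mouse 3 than at baseline. NSG mouse 4 retained the most, at 56.8-fold lower, against 48.2-fold lower for GFP_Barcode_27492 in that mouse.

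GFP_Barcode_86249, at 2.15% of the baseline library, was at 489, 5.22 and 5.87 CPM in Ptprca mice and at 95.2, 12.4 and 0.182 CPM in NSG mice. The values of Ptprca mouse 3 and NSG mouse 6 are below the floors of their libraries. GFP_Barcode_22402 and GFP_Barcode_5485, at 1.57% (1.56% to 1.59%) and 1.39% (1.38% to 1.40%) of baseline, were at 0 in all 6 bone marrows. GFP_Barcode_22402 was thus at least 1789-fold lower in Ptprca mouse 3, whose floor is the highest, and at least 21422-fold lower in each of the other 5. GFP_Barcode_5485 was at least 1578-fold lower in Ptprca mouse 3 and at least 18898-fold lower elsewhere. GFP_Barcode_74656, at 1.25% of baseline, had 13.9 CPM in Ptprca mouse 1 and 0 in the other 5 mice. By contrast GFP_Barcode_36463 and GFP_Barcode_455 kept over 0.1% of every bone marrow. GFP_Barcode_36463 held 1.53% of baseline and 0.232%, 0.552%, 0.186%, 0.201%, 0.203% and 0.253% of bone marrows 1 to 6, 2.77 to 8.19 times less. GFP_Barcode_455 held 1.16% of baseline and 0.565%, 0.625%, 0.856%, 0.314%, 0.183% and 0.168%, 1.35 to 6.90 times less. Its 3 Ptprca values all lay above its NSG values, a difference that did not pass (limma log2 difference -1.66, SE 0.73, adjusted p = 0.335). Clones of like starting size thus ended orders of magnitude apart.

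A lack of reads in all 6 bone marrows extended beyond these examples. In total 1782 clones (74.4%) were at 0 in all 6 bone marrows, and they had held 32.4% of the baseline library. Among them were 70 of the 184 largest clones (38.0%), which had held 15.6% of it. After the clones already named, the largest were GFP_Barcode_23322 at 0.653%, GFP_Barcode_120710 at 0.563% and GFP_Barcode_61858 at 0.395% of baseline.

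The spleen of a mouse held few of the clones missing from its bone marrow. Spleen values had so far entered only the filter of the limma test. Of the 655, 699 and 702 clones at 100 CPM or more at baseline and 0 in bone marrow of Ptprca mice 1, 2 and 3, the spleen had reads for 20, 15 and 13 (3.05%, 2.15% and 1.85%). For NSG mice 4, 5 and 6 it had reads for 9 of 669, 11 of 615 and 72 of 650 (1.35%, 1.79% and 11.1%). NSG mouse 6 stood apart in clones with any read. At 10 CPM or more in spleen there were 8, 11 and 13 clones in NSG mice 4, 5 and 6 and 2, 5 and 3 in Ptprca mice 1, 2 and 3. Together the missing clones held 0.0133% to 0.0818% of Ptprca spleens and 0.0910% to 1.56% of NSG spleens. Of the 1782 clones at 0 in all 6 bone marrows, 77 had reads in at least 1 spleen and 11 reached 10 CPM there. In the other direction, of the clones of that size which survived in bone marrow, 88.4%, 89.8% and 94.0% reached 10 CPM in the spleen of Ptprca mice 1, 2 and 3. For NSG mice 4, 5 and 6 the shares were 55.7%, 63.7% and 62.1%. The NSG spleen libraries were the least repeatable: of barcodes between 10 and 100 CPM, 27.9% to 53.2% were seen in both repeats, against 86.9% to 100% in Ptprca spleens. The part of this in the difference was not tested.

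Few clones held a larger share of bone marrow than of the progenitor pool, and these made up nearly all of each bone marrow. They are picked by their bone marrow value, so this is a description. In Ptprca mice 1, 2 and 3, 137, 146 and 119 clones (5.72%, 6.10% and 4.97% of 2394) were at 10 CPM or more and above their baseline value. For NSG mice 4, 5 and 6 there were 146, 164 and 144 (6.10%, 6.85% and 6.02%). They held 95.1% to 96.4% of Ptprca and 93.3% to 95.2% of NSG bone marrow, from 11.0% to 11.9% and 9.29% to 10.3% of the baseline library. At least 10-fold above baseline were 58, 53 and 52 clones in Ptprca mice (2.42%, 2.21% and 2.17%) and 48, 52 and 36 in NSG mice (2.01%, 2.17% and 1.50%). These had held 1.66% to 2.17% of the baseline library in Ptprca and 1.42% to 2.66% in NSG mice. They made up 71.0%, 65.0% and 66.9% of bone marrow in Ptprca mice 1, 2 and 3 and 71.5%, 73.2% and 62.3% in NSG mice 4, 5 and 6.

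The strains overlapped in this class at the 10-fold limit. Its count was 54.3 ± 3.21 in Ptprca and 45.3 ± 8.33 in NSG mice (SD, n = 3 each, p = 0.20 by exact two-sided permutation and 0.360 after adjustment). The difference of -9.00 was -4.33 without NSG mouse 6 and -5.00 without GFP_Barcode_52804. Among clones at 10 CPM or more at baseline it was -8.67 (p = 0.10 by exact two-sided permutation, unadjusted). The share of this class in bone marrow was 67.6% ± 3.06 and 69.0% ± 5.86 (SD, n = 3 each, p = 0.80 by exact two-sided permutation and 0.900 after adjustment). At least 100-fold above baseline were 9, 12 and 9 clones in Ptprca mice (0.376%, 0.501% and 0.376%) and 7, 5 and 1 in NSG mice (0.292%, 0.209% and 0.0418%). The 1 clone of NSG mouse 6 was GFP_Barcode_52804, which alone held 17.9% of that bone marrow.

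Gains of at least 10-fold came from every class of starting size. In the class from 100 to 1000 CPM, 29, 28 and 29 clones of 745 gained 10-fold in Ptprca mice 1, 2 and 3, with 28, 26 and 19 for NSG mice 4, 5 and 6. In the class of 1000 CPM or more the counts were 6, 4 and 3 of 184 in Ptprca and 3, 5 and 4 in NSG mice. In the class from 10 to 100 CPM they were 18, 15 and 19 of 832 in Ptprca and 14, 15 and 11 in NSG mice. Under 10 CPM, where the limit of 10 CPM in bone marrow itself requires a gain, they were 5, 6 and 1 of 633 in Ptprca and 3, 6 and 2 in NSG mice. Clones that had held 100 to 1000 CPM made up 46.6% to 49.3% of Ptprca and 44.3% to 65.9% of NSG bone marrow. The largest starting clones, with 70.5% of baseline, made up 42.1% ± 2.24 and 41.3% ± 10.5 (SD, n = 3 each, p = 1.0 by exact two-sided permutation and 1.00 after adjustment). Clones from 10 to 100 CPM made up 9.40% ± 1.67 of Ptprca and 4.34% ± 2.25 of NSG bone marrow (SD, n = 3 each).

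The composition that bone marrow shared with the baseline library was small in all mice. The sum over barcodes of the smaller of both shares, which is 100% for identical libraries, was 15.4%, 15.8% and 15.9% in Ptprca and 15.0%, 16.0% and 16.4% in NSG mice (p = 0.80 by exact two-sided permutation and 0.900 after adjustment). Without GFP_Barcode_52804, the highest in mean bone marrow, the means were 15.7% and 17.0% (p = 0.10 by exact two-sided permutation, unadjusted). Concentration differed more. The 58 largest barcodes held 50% of the baseline library, 15, 16 and 15 made up 50% of Ptprca bone marrows 1, 2 and 3, and 8, 6 and 7 made up 50% of NSG bone marrows 4, 5 and 6. The strains did not overlap (p = 0.10 by exact two-sided permutation, 0.225 after adjustment). The difference between the strain means went from -8.33 to -4.67 barcodes without GFP_Barcode_52804, at means of 15.3 and 10.7. For 90% the numbers were 558 at baseline, 64, 65 and 64 in Ptprca and 64, 69 and 65 in NSG mice, and there the strains overlapped. The barcodes that made up 90% of a bone marrow had held 11.7% to 13.1% of baseline in Ptprca and 9.85%, 21.2% and 21.2% in NSG mice (p = 0.40 by exact two-sided permutation and 0.600 after adjustment).

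The 10 clones with the highest mean in bone marrow had ranked 14 to 362 at baseline, with 495 to 10077 CPM against a median of 50.2 CPM over the 2394. Of the 10 largest clones of each bone marrow, 6, 5 and 4 in Ptprca mice 1, 2 and 3 and 4, 6 and 6 in NSG mice 4, 5 and 6 had held 1000 CPM or more at baseline. GFP_Barcode_52804, rank 323 at baseline with 0.0560% of the library (0.0540% to 0.0582%), led all 3 NSG bone marrows at 23.4%, 18.7% and 17.9%. In the Ptprca bone marrows it held 0.262%, 0.269% and 0.266%, values that hardly varied. It was thus 4.68 to 4.80 times its baseline share in Ptprca mice and 319 to 418 times in NSG mice. GFP_Barcode_69276, rank 66 at baseline with 0.250% (0.246% to 0.254%), led Ptprca bone marrows 2 and 3. It held 2.73%, 7.29% and 8.07% of Ptprca and 4.28%, 6.45% and 6.39% of NSG bone marrow, 10.9 to 32.3 times its baseline share, and the strains overlapped. GFP_Barcode_52357, rank 362 with 0.0495% at baseline, led Ptprca mouse 1 at 5.94%. Its other values were 0.658% and 1.32% in Ptprca mice 2 and 3 and 2.14%, 1.75% and 3.20% in NSG mice, 13.3 to 120 times the baseline share over all 6 mice.

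Several further clones were at least 10-fold above baseline in each mouse. GFP_Barcode_98919, at 0.0874% of baseline, held 1.17%, 4.28% and 2.76% of Ptprca and 4.78%, 2.45% and 4.58% of NSG bone marrow, a gain of 13.3-fold to 54.7-fold. GFP_Barcode_22403, at 0.154%, held 4.01%, 2.35% and 2.45% of Ptprca and 4.34%, 4.15% and 12.9% of NSG bone marrow, 15.3-fold to 84.3-fold, with NSG mouse 6 the highest. GFP_Barcode_39453, at 0.0809%, held 2.04%, 1.12% and 7.47% of Ptprca and 1.19%, 0.869% and 0.845% of NSG bone marrow, 10.4-fold to 92.4-fold, with Ptprca mouse 3 the highest. None of these 3 passed between strains (limma adjusted p = 0.653, 0.371 and 0.397). In contrast to these, the large starting clone GFP_Barcode_18532, at 1.01% of baseline, gained little except in 1 animal. It was at 26308, 28174 and 11961 CPM in Ptprca and at 41284, 157885 (15.8%) and 28344 CPM in NSG bone marrow, 1.19-fold to 4.10-fold above baseline outside NSG mouse 5 and 15.7-fold in it. GFP_Barcode_3138 and GFP_Barcode_618, at 0.414% and 0.119% of baseline, varied widely between mice. GFP_Barcode_3138 ran from 0.743-fold in Ptprca mouse 3 to 13.6-fold in Ptprca mouse 2, and GFP_Barcode_618 from 1.31-fold in NSG mouse 4 to 49.7-fold in Ptprca mouse 1.

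Among clones at 10 CPM or more at baseline, the 10 with the highest ratio of mean bone marrow to baseline were GFP_Barcode_52804, with a ratio of 181, and 9 clones under 100 CPM at baseline. Several of these 9 were large in 1 or 2 animals. GFP_Barcode_43269, at 21.7 CPM at baseline, held 3.50% of NSG mouse 5, a gain of 1615-fold. In the other mice it had 23.2, 0 and 0 CPM in Ptprca and 0 and 126 CPM in NSG mice 4 and 6. GFP_Barcode_28411 (36.1 CPM at baseline) reached 2.51% of Ptprca mouse 3 and 0.217 to 883 CPM elsewhere. GFP_Barcode_29272 (83.3 CPM) reached 3.63% of Ptprca mouse 1 and 0 to 631 CPM elsewhere. Without the highest mouse, the ratio of mean bone marrow to baseline went from 270 to 1.38 for GFP_Barcode_43269, from 122 to 6.76 for GFP_Barcode_28411 and from 74.1 to 1.91 for GFP_Barcode_29272. GFP_Barcode_14829 and GFP_Barcode_69220, at 16.4 and 11.0 CPM at baseline, reached 1.33% and 0.577% of NSG mouse 4. In the other 5 mice GFP_Barcode_14829 had 5.87 CPM in Ptprca mouse 3, below the floor of that library, and 0 in 4, while GFP_Barcode_69220 was at 0 in all 5.

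A few rare clones were large in several mice. GFP_Barcode_81719 (14.3 CPM at baseline) had 49.7, 13005 and 6849 CPM in Ptprca and 3.22, 0 and 0 CPM in NSG hosts, a strain difference that did not pass (limma log2 difference -10.00, SE 2.63, adjusted p = 0.108). GFP_Barcode_56 (18.8 CPM) had 5302 and 5439 CPM in Ptprca mice 2 and 3 and 0 in the other 4. GFP_Barcode_117983 (55.7 CPM) was above baseline in every mouse, at 2248, 9145 and 5090 CPM in Ptprca and 2405, 3530 and 376 CPM in NSG mice, 6.75-fold to 164-fold. GFP_Barcode_122306 (78.7 CPM) had 12733, 12399 and 10539 CPM in Ptprca mice, 134-fold to 162-fold above baseline. Its values of 102, 189 and 57.9 CPM in NSG mice were 0.736-fold to 2.40-fold of its starting level.

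The strain difference of a clone over baseline equals its strain difference in bone marrow, because the baseline value is shared, and it was tested by limma on log2(CPM + 1) over 373 barcodes. Of the 2394 clones, 369 (15.4%) passed the filter on low values. An adjusted p under 0.05 was found for 1 barcode higher in NSG mice (0.268% of those tested) and 3 lower (0.804%), in all 1.07%, and all 4 were also present at baseline. The balance of directions depended on the filter: set on 3 of the 6 bone marrows, it gave 13 higher and 7 lower in NSG mice. The 4 barcodes of the main test differed in how they stood to the starting pool. GFP_Barcode_52804 lay above baseline in both strains and 6.22 higher in NSG mice on the log2 scale (SE 0.39, limma adjusted p = 0.000166). GFP_Barcode_44375 had held 0.982% of baseline. It was above that share in Ptprca mice, at 3.32%, 4.37% and 3.67%, and below it in NSG mice, at 0.0496%, 0.0706% and 0.0172%. Its difference was -6.58 (SE 0.82, limma adjusted p = 0.0110), from 3.38-fold to 4.45-fold above baseline in one host to 13.9-fold to 57.1-fold below it in the other. GFP_Barcode_24738, at 0.389% of baseline, showed the same order on a smaller scale. It was at 1.61%, 3.38% and 2.18% in Ptprca and at 0.139%, 0.140% and 0.104% in NSG mice, a difference of -4.17 (SE 0.66, limma adjusted p = 0.0283). GFP_Barcode_122306 differed by -6.82 (SE 1.05, limma adjusted p = 0.0283).

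These calls rest on few mice. With any 1 of the 6 mice left out, 1 or 2 barcodes were called, GFP_Barcode_52804 each time, and without Ptprca mouse 1 and NSG mouse 5 it was 0, with 52 at an unadjusted p under 0.05. The log2 differences without these mice were 6.26 for GFP_Barcode_52804 (limma adjusted p = 0.136), -7.10 for GFP_Barcode_44375, -7.20 for GFP_Barcode_122306 and -4.50 for GFP_Barcode_24738 (limma adjusted p = 0.240 each), each at least as large as with all 6 mice. The median log2 difference over all 373 barcodes was 0.80 towards NSG mice and 0.09 with centred log-ratios, both far smaller than any of the 4 called differences.

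Some barcodes kept a nearly fixed ratio to each other from baseline through all 6 bone marrows. Whether such barcodes mark the same clone was not tested. Pairs were formed among 177 barcodes at 100 CPM or more at baseline and in at least 3 bone marrows. The log2 ratio of each pair was taken over the 7 libraries, with 1 CPM added to every value. Over the 15576 pairs, the SD of this ratio had a median of 4.21. The pairs below were taken from the low end after their values were seen. GFP_Barcode_7083 and GFP_Barcode_69276 had an SD of 0.131. GFP_Barcode_7083 was 11.6, 32.7, 41.3, 18.1, 29.3 and 32.2 times its baseline value in bone marrows 1 to 6, and GFP_Barcode_69276 was 10.9, 29.1, 32.3, 17.1, 25.8 and 25.6 times. GFP_Barcode_618 and GFP_Barcode_117016 had an SD of 0.124, and GFP_Barcode_12499 followed GFP_Barcode_618 with an SD of 0.297. In Ptprca mouse 1 these 3 barcodes were 49.7, 52.2 and 41.9 times their baseline value, and in NSG mouse 4 they were 1.31, 1.11 and 2.04 times.

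The same was seen among clones that lost share. GFP_Barcode_27492 and GFP_Barcode_132107, rank 1 and rank 3 at baseline, had an SD of 0.233, and GFP_Barcode_3121 and GFP_Barcode_40350 one of 0.248. GFP_Barcode_3121 went from 10369 CPM at baseline to 0.226, 0, 2839, 69.5, 1168 and 382 CPM in bone marrows 1 to 6. GFP_Barcode_40350 went from 12978 CPM to 0.845, 0, 3471, 66.9, 1188 and 526 CPM. Both were at 0 in Ptprca mouse 2 and highest in Ptprca mouse 3. In Ptprca mouse 2 their ratio is set by the added 1 CPM alone. In Ptprca mouse 1 the 0.226 CPM of GFP_Barcode_3121 lies under the floor of 0.677 CPM, and the added 1 CPM narrows the difference. Those libraries thus say little about the ratio of this pair. Such barcodes are counted separately in every number of clones given above.

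At the edge of the rule, the clones just inside had 1 read in 1 repeat at baseline. The lowest baseline values were 0.178 CPM (22 clones) and 0.230 CPM (28 clones), and of these 50 clones 0 reached 10 CPM in any bone marrow, with 2.93 CPM as the highest value. Just outside were 111 barcodes at 0 in the baseline library, where a count of 0 allows up to 0.691 CPM, and 22 of them reached 10 CPM in at least 1 bone marrow.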

How the data were processed

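The deposited table gave CPM, made by the authors, for each barcode in each library. Each column summed to 1000000. Per the submitters' processing notes, Bowtie 1.2.2 and R 3.6 were used, with settings not given in the sources used here. Per the labels' protocols, lysates were split into technical replicates and amplified by PCR. Below 60 CPM every value could be written as whole reads of 2 repeats of differing depth, averaged, within 1e-06 CPM, which gave each repeat's reads and the floor. No count model was fitted, since repeats of unequal depth were averaged. Groups came from the sample titles, with a mouse as the replicate.

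Per mouse, 9 measures were computed in Python 3.11.15 (pandas 2.3.3, numpy 2.4.6) and compared between strains by exact two-sided permutation with Benjamini-Hochberg adjustment. Wilson intervals came from scipy 1.17.1. Barcodes that reached 10 CPM in 3 or more of all 12 bone marrow and spleen libraries were tested with limma 3.58.1 (R 4.3.3, variance trend, pseudocount 1). A run on simulated data drew normal log2 values with the same SD in both strains. It did not imitate barcodes at 0 in a strain, so it cannot vouch for the test on those. Log2 differences understate changes of low barcodes. The named barcodes were the 10 highest at baseline, the 10 highest in mean bone marrow, the 10 with the highest ratio of these among those at 10 CPM or more at baseline, 5 at 0 in all bone marrows, the leader of each bone marrow and up to 5 called per direction. That gave 33. Members, measures and lists were chosen with earlier results of these data known. Alternatives covered limits, scaling, filters, pseudocounts and mice left out, and 1, reads in both repeats, was added after seeing the data.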

Additional observations from a re-analysis of the deposited data

Results flagged for a closer look

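The test between strains picked out 4 barcodes, with log2 differences (NSG minus Ptprca) of 6.22 for GFP_Barcode_52804, -6.58 for GFP_Barcode_44375, -4.17 for GFP_Barcode_24738 and -6.82 for GFP_Barcode_122306. Of these, GFP_Barcode_44375 and GFP_Barcode_24738 were above the baseline share in each Ptprca mouse and below it in each NSG mouse. Barcodes that were not called split between the strains in both directions. For example, GFP_Barcode_1218 was above baseline in Ptprca mice only (limma adjusted p = 0.0637). GFP_Barcode_15540 was above baseline in NSG mice only (limma adjusted p = 0.0795).

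Barcodes at 0 in the baseline library lie outside the comparisons, and in each bone marrow at least 1 reached the floor of 3 reads. They held 0.00674%, 0.000470% and 0.00962% of the bone marrow in Ptprca mice 1, 2 and 3 and 0.0912%, 0.000335% and 0.00173% in NSG mice 4, 5 and 6. NSG mouse 4 had 31 of them, 16 at 10 CPM or more, and the highest, GFP_Barcode_38964, was at 244 CPM.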

How the results depend on the processing

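No paired analysis was possible because the groups compared share no mouse number and the baseline library has none. The strain differences in survivors, in the percent of baseline lost and in the percent of large clones lowered kept their direction under every alternative run, and with each mouse left out they ran from 54.3 to 79.3 clones, from -14.2 to -9.50 and from -5.36 to -4.18 percentage points. None could pass a threshold of 0.05 with 3 mice a strain. Above 0 CPM the strains overlapped in survivors and in the percent of baseline lost (p = 0.30 each by exact two-sided permutation, unadjusted). At the floor of 3 reads, p for the percent lost was 0.20 by the same test. Other differences turned: the count of clones gaining share was 1.67 higher in NSG mice at a 2-fold limit and differed by -12.3 to -4.33 at the 10-fold limit when mice were removed one at a time, and their share of bone marrow -1.30 at a 2-fold limit, -3.11 without GFP_Barcode_52804 and -0.734 to 4.71 with each mouse left out. The share from the largest starting clones differed by 9.21 without GFP_Barcode_52804, by 4.99 with a minimum of 100 CPM at baseline and by -3.80 to 5.33 with each mouse left out, the highest without NSG mouse 4. The shared composition differed by -0.163 when Ptprca mouse 1 and NSG mouse 5 were removed, by 1.34 without GFP_Barcode_52804 and by -0.209 to 0.454 when mice were removed one at a time. The difference in barcodes for 50% of the library was -4.67 without GFP_Barcode_52804. The number of barcodes for 90% of the library was 1.67 higher in NSG mice, and the baseline share of those for 50% differed by -1.54. The cause was not tested.

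Levels followed the limits. Mean survivors in Ptprca and NSG mice were 309 and 371 above 0 CPM, 274 and 357 at the floor, and 173 and 212 at 100 CPM. The percent of baseline lost was 51.8 and 45.2 above 0 CPM and 66.1 and 56.6 at 100 CPM, and 50.5 in NSG mice with reads in both repeats required. Clones gaining share numbered 109 and 111 at a 2-fold limit and 10.0 and 4.33 at a 100-fold limit, with 90.8% and 89.5%, and 14.4% and 25.4%, of bone marrow. In Ptprca mice they numbered 50.3 among clones at 10 CPM or more at baseline.

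The 4 limma calls became 20 with the filter set on 3 of the 6 bone marrows, 14 with a filter of 100 CPM, 12 without a variance trend, 0 without Ptprca mouse 1 and NSG mouse 5, and 1 to 2 when single mice were removed. Of the 20, 14 and 12 calls, 13, 8 and 8 were higher in NSG mice and 7, 6 and 4 lower. With centred log-ratios 1 was higher and 5 were lower. GFP_Barcode_52804 was called in 13 of 14 alternatives (adjusted p 0.000151 to 0.136), GFP_Barcode_44375 in 9 (0.00473 to 0.240), GFP_Barcode_122306 in 7 and GFP_Barcode_24738 in 5 (0.0141 to 0.240 each). The sign of 7 uncalled log2 differences turned. With centred log-ratios, GFP_Barcode_3138 was at -0.42, GFP_Barcode_69276 at -0.66, GFP_Barcode_98919 at -0.05 and GFP_Barcode_52357 at -0.30. Without Ptprca mouse 1 and NSG mouse 5, GFP_Barcode_86249 was at 0.71 and GFP_Barcode_69276 at -0.55. With each mouse left out, the ranges were -2.79 to 0.81 for GFP_Barcode_86249, -0.72 to 0.07 for GFP_Barcode_36463, -0.89 to 1.21 for GFP_Barcode_3138, -0.45 to 0.33 for GFP_Barcode_69276, -1.33 to 0.53 for GFP_Barcode_618 and -0.29 to 1.30 for GFP_Barcode_52357.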
